A study of Mus musculus with 6 samples.

Results

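The striated muscle myomiRs are a small family of miRNAs named for their enrichment in heart and skeletal muscle. The 7 mouse assay names examined were mmu-miR-1, mmu-miR-133a, mmu-miR-133b, mmu-miR-206, mmu-miR-208, mmu-miR-208b and mmu-miR-499, written here without the species prefix and chosen by exact assay name, without strands marked by an asterisk. Of these, 6 had an assay among the 596 mouse miRNA assays of the table, miR-206 was not analysed here, and 4 (miR-1, miR-133a, miR-133b and miR-208) were detected in at least 3 samples and could be tested among 439 tested assays.

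The RNA came from whole aortas of 6 female Apoe-/- mice that all carried the VE-Cadherin-CreERT2 transgene, a tamoxifen-inducible Cre recombinase driven by an endothelial promoter. The 3 EC-Dicerflox mice were Dicer1flox/flox, and in them tamoxifen deletes Dicer, the nuclease that releases mature miRNAs from their hairpin precursors, in endothelial cells. The 3 EC-DicerWT mice were Dicer1WT/WT littermates. Both groups received tamoxifen on 5 consecutive days and, from an age of 6-8 weeks, a high-fat diet of 21% crude fat and 0.15% cholesterol lasting 12 weeks. The promoter limits Cre to endothelial cells, and each value is for the whole vessel, in which fewer cells of a type and less RNA per cell cannot be told apart.

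MiR-1 and miR-133a are made together from shared precursor transcripts in heart and skeletal muscle, where miR-1 promotes differentiation of muscle cells and miR-133a restrains serum response factor and smooth muscle genes. MiR-133b and miR-206 form a related pair that is typical of skeletal muscle. The miR-208 assay addresses miR-208a, which lies in the cardiac myosin gene Myh6, while miR-208b lies in Myh7 and miR-499 in Myh7b, so that these myosin genes carry miRNAs which in turn tune the choice between fast and slow myosin. MiR-208a is regarded as specific to cardiomyocytes.

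The RefSeq annotation of GRCm38.p6 placed the miR-208a hairpin within Myh6, the miR-208b hairpin within Myh7 and the miR-499 hairpin within Myh7b, and it placed the miR-133b and miR-206 hairpins in the same non-coding gene, Lincmd1. Mature sequences from the RefSeq miRNA table of GRCm38.p6 were matched for 4 of the assayed members. They are shown because miR-208a and miR-208b, whose assays gave late and in part undetected signals, differ at few bases, while miR-499 resembles them mainly in the seed. Capitals mark the seed, bases 2 to 8 from the 5′ end, which pairs with target mRNAs.
miR-208a-3p: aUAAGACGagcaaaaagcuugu
miR-208b-3p: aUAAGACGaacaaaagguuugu
miR-499-5p: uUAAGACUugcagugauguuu
miR-133b-3p: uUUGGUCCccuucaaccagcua
The arms shown for miR-208, miR-133b and miR-499 are those usually meant by names without an arm, since the assay names give none.

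The mature sequence of miR-208a lies at chr14:54949072-54949093 on the minus strand, that of miR-208b at chr14:54975710-54975731 on the minus strand, that of miR-499-5p at chr2:155622893-155622913 on the plus strand and that of miR-133b at chr1:20682834-20682855 on the plus strand. MiR-208a and miR-208b shared the seed UAAGACG, which no other of the 1679 mature miRNA names in the RefSeq table had. Over 22 aligned positions counted from the 5′ end they were identical at 19 and differed at 3, namely G10A, A16G and C18U with the miR-208a base first. MiR-499-5p had UAAGACU as its seed, with bases 2 to 7 in common with both miR-208 forms, and these 3 miRNAs were the only ones in the table with that stretch. From 21 positions compared, miR-499-5p matched miR-208a at 12 and miR-208b at 10.

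Values are raw cycle thresholds (Ct), where a higher number means less target and 40 stands for no detection. Amplification efficiency was not measured, so Ct values of different assays give an order of signals and not of RNA amounts. By this order the myomiRs fell apart into an early and a late set. MiR-133a had the earliest signal with a mean Ct of 18.6, followed by miR-133b at 21.5, miR-1 at 22.0 and miR-208 at 31.6. Among the 394 miRNA assays detected in all samples, miR-133a ranked 24th, miR-133b 73rd, miR-1 84th and miR-208 353rd from the earliest.

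The Ct of miR-133a was 18.2, 18.9 and 19.0 in EC-Dicerflox replicates 1, 2 and 3 and 18.4, 18.4 and 19.0 in EC-DicerWT replicates 1, 2 and 3. MiR-133b crossed later by 2.87 ± 0.12 cycles (SD, n = 6) and did so in 6 of 6 samples. Its Ct was 20.9, 21.8 and 21.7 in EC-Dicerflox and 21.2, 21.5 and 22.0 in EC-DicerWT aortas. Both assays had overlapping groups, and the step from miR-133a to miR-133b was much wider than its spread.

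For miR-1 the Ct was 22.0, 22.5 and 22.1 in EC-Dicerflox and 21.7, 22.0 and 21.9 in EC-DicerWT aortas. MiR-1 followed miR-133b by 0.52 ± 0.36 cycles (SD, n = 6), later in 5 of 6 samples and earlier by 0.07 cycles in EC-DicerWT replicate 3. These neighbours were thus close in order, whereas miR-208 followed miR-1 by 9.59 ± 0.98 cycles (SD, n = 6).

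MiR-208 had a Ct of 31.8, 32.5 and 33.2 in EC-Dicerflox and of 30.7, 31.3 and 30.1 in EC-DicerWT aortas. All EC-Dicerflox aortas crossed later than every EC-DicerWT aorta. MiR-208b was at the limit of 40 in EC-Dicerflox replicate 1 and in all EC-DicerWT aortas, and had a Ct of 35.10 and 33.61 in EC-Dicerflox replicates 2 and 3. MiR-499 was detected in a single well, at a Ct of 35.8 in EC-DicerWT replicate 2. Of the myosin-encoded members, then, miR-208 was late but present in every aorta, and miR-208b and miR-499, which slow skeletal muscle also makes, were undetected in 4 and 5 of the 6 samples. MiR-1, miR-133a and miR-133b were early in all 6.

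**Figure D1:**
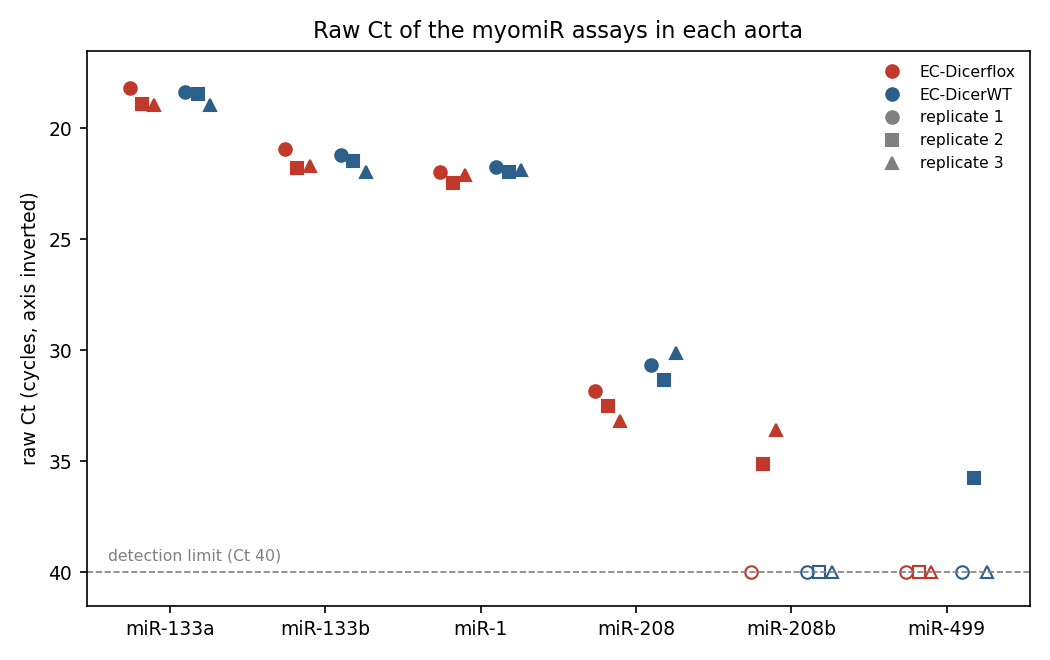
Raw Ct (cycles, inverted axis, so that more RNA lies higher) of the 6 assayed myomiRs in each aorta, coloured by group and shaped by replicate, with open symbols on the dashed line for wells at the limit of 40. MiR-133a, miR-133b and miR-1 sit between 18.2 and 22.5 in all samples, and miR-208, miR-208b and miR-499 sit at or later than 30.1.

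The comparison of EC-Dicerflox with EC-DicerWT aortas asks which miRNAs of the vessel differ when endothelial cells lack Dicer. Levels were expressed as the mean Ct of 5 control small RNAs minus the Ct of the miRNA, on the log2 scale. The controls had a mean Ct of 19.4, 19.9 and 20.4 in EC-Dicerflox and 19.6, 19.4 and 20.2 in EC-DicerWT aortas, so replicate 3 of each group had the latest controls. Both of these samples stood over 2 cycles beyond the remaining 4 in 22 of the 596 mouse miRNA assays, and in 0 of the 6 assayed myomiRs. At so low a share, a count of 0 among 6 does not set the myomiRs apart from the other assays.

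None of the 4 tested myomiRs had an adjusted P under 0.05 in limma, against 0.0% of all tested assays. At an unadjusted P under 0.05 the count was 1 of 4, miR-208, against 4.78% of all tested assays in either direction and 3.87% in the lower direction. The median change of the 4 was -0.04 on the log2 scale and that of all tested assays was -0.10. The change was below 0 in 2 of the 4 and in 61.7% of all tested assays.

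The levels of miR-133a in the 3 EC-Dicerflox aortas were 1.28, 0.97 and 1.39, and in the EC-DicerWT aortas 1.20, 1.02 and 1.21 (log2 relative to the control RNAs). The groups overlapped. A difference of 0.07 ± 0.22 (SE) was found, equal to 105.0% of the level in EC-DicerWT aortas (95% interval 71.5% to 154.0%), with an adjusted limma P of 0.994. With 3 mice per group the interval spans both lower and higher levels of miR-133a, so no direction was set.

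MiR-133b had levels of -1.49, -1.91 and -1.34 in EC-Dicerflox and -1.63, -2.01 and -1.79 in EC-DicerWT aortas. Again the groups overlapped, with a difference of 0.23 ± 0.25 (SE) and a 95% interval from -0.41 to 0.87 (adjusted limma P of 0.994). With U6 alone as reference the signs of both miR-133 forms turned, to -0.31 for miR-133a and -0.15 for miR-133b. With that reference the median of all tested assays lay at -0.48, so both lay above it, as they did with the 5 controls.

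The level of miR-1 was -2.52, -2.61 and -1.74 in EC-Dicerflox and -2.16, -2.53 and -1.71 in EC-DicerWT aortas. Replicate 3 of both groups had the highest level of miR-1, from -1.74 to -1.71, and the other 4 samples lay between -2.61 and -2.16. In raw Ct, replicate 3 (22.1 in EC-Dicerflox, 21.9 in EC-DicerWT) lay within the 21.7 to 22.5 of the other 4. Replicate 3 also had the later control RNAs, at 20.4 and 20.2. Without control RNAs, the Ct of miR-1 minus that of miR-133a was lowest in replicate 3 of both groups. It was 3.14 cycles in EC-Dicerflox and 2.92 cycles in EC-DicerWT, against 3.36 to 3.79 in the other 4. The cause of the higher level in replicate 3 was not tested. The difference between the groups was -0.15 ± 0.36 (SE), within a 95% interval from -1.07 to 0.77 (adjusted limma P of 0.994). Within replicates 1 and 2 it was -0.22 and between the replicates numbered 3 it was -0.03, the latter from 1 sample per group.

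MiR-208 had levels of -12.41, -12.64 and -12.81 in EC-Dicerflox and -11.10, -11.87 and -9.96 in EC-DicerWT aortas. The groups did not overlap, and the gap between the highest EC-Dicerflox and the lowest EC-DicerWT value was 0.54. Of all tested assays, 7.06% were lower in EC-Dicerflox without overlap and 9.79% did not overlap in either direction, against 1 of 4 for the myomiRs. EC-Dicerflox aortas averaged -12.62 ± 0.20 (SD, n = 3), and EC-DicerWT aortas averaged -10.97 ± 0.96 (SD, n = 3). This difference of -1.65 ± 0.53 (SE) corresponds to 31.9% of the EC-DicerWT level, with a 95% interval from 12.7% to 80.3%. In limma its P was 0.024 before and 0.976 after adjustment. Exact permutation gave a P of 0.1, below which 3 against 3 samples cannot go.

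**Figure D2:**
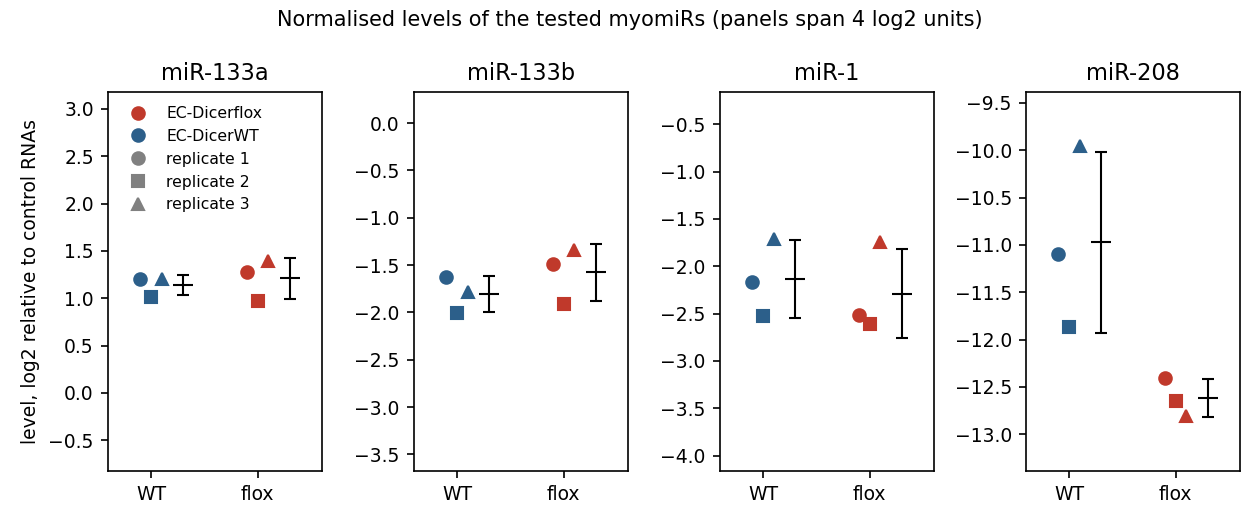
Levels (log2 relative to the mean of 5 control RNAs) of the 4 tested myomiRs in EC-DicerWT (WT) and EC-Dicerflox (flox) aortas, 1 symbol per mouse with the group mean and SD (n = 3) beside it, on panels that each span 4 log2 units. The groups overlap for miR-133a, miR-133b and miR-1, and for miR-208 the EC-Dicerflox values of -12.81 to -12.41 lie below the EC-DicerWT values of -11.87 to -9.96.

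In raw Ct the SD of miR-208 was 0.66 cycles in EC-Dicerflox and 0.59 cycles in EC-DicerWT aortas. Relative to the control RNAs, its spread came mostly from the EC-DicerWT group, where replicate 3 had the highest level. Without that mouse the difference was -1.14 with an unadjusted limma P of 0.0281. It was -1.05 in replicates 1 and 2 (unadjusted limma P of 0.0667) and -2.85 between the replicates numbered 3, from 1 sample per group and so without a test. The unadjusted limma P also rose over 0.05 when EC-DicerWT replicate 1 (0.0554), EC-Dicerflox replicate 2 (0.0633) or EC-Dicerflox replicate 3 (0.0689) was left out. Late assays vary more. In the 68 assays detected in all samples with a mean Ct from 30 to 33, the median SD within groups was 1.09, against 0.29 in the 144 assays with a mean Ct under 25. MiR-208 had 0.69, and miR-133a, miR-133b and miR-1 had 0.17, 0.25 and 0.44. Among those 68 late assays, 9 did not overlap between the groups and 5 of these were lower in EC-Dicerflox aortas.

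**Figure D3:**
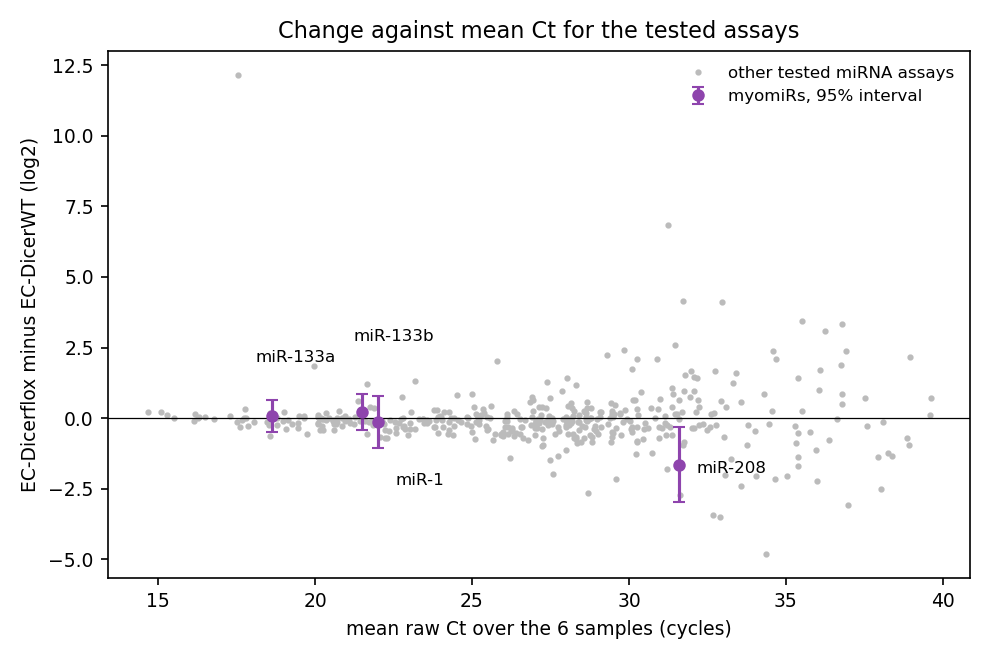
EC-Dicerflox minus EC-DicerWT (log2) of the 439 tested assays against their mean raw Ct over the 6 samples (cycles), with the 4 tested myomiRs in purple and their 95% intervals from limma. The early myomiRs lie close to 0, and miR-208 at -1.65 lies in the range of Ct where single assays scatter widely.

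Ct differences between myomiRs of the same aorta need no control RNA. For 7 pairs the groups were compared by two-sided exact permutation of the samples, with adjustment over the 7. The Ct of miR-1 minus that of miR-133a was 3.79, 3.58 and 3.14 in EC-Dicerflox and 3.36, 3.55 and 2.92 cycles in EC-DicerWT aortas. The difference of 0.22 ± 0.27 cycles (SE) was smaller than the spread between mice (exact permutation P of 0.4, adjusted 0.56), and it ranged from 0.045 without EC-DicerWT replicate 3 to 0.407 without EC-Dicerflox replicate 3. MiR-133a minus miR-133b was the steadiest pair, with -2.76, -2.88 and -2.73 cycles in EC-Dicerflox and -2.83, -3.02 and -2.99 cycles in EC-DicerWT aortas. The difference was 0.16 ± 0.08 cycles (SE), with overlap (exact permutation P of 0.2, adjusted 0.35). Whether the assay for one miR-133 form picks up the other was not tested.

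Relative to miR-133a, miR-208 crossed 13.7, 13.6 and 14.2 cycles later in EC-Dicerflox and 12.3, 12.9 and 11.2 cycles later in EC-DicerWT aortas. Relative to miR-1 it crossed 9.89, 10.04 and 11.07 cycles later in EC-Dicerflox and 8.93, 9.34 and 8.25 cycles later in EC-DicerWT aortas. The groups did not overlap in either pair. Both pairs were added after the difference of miR-208 was seen and restate it without the control RNAs. The later crossing in EC-Dicerflox aortas amounted to 1.72 ± 0.54 cycles (SE) against miR-133a and 1.49 ± 0.49 cycles (SE) against miR-1, each with an exact permutation P of 0.1, the smallest possible, and 0.23 after adjustment. In replicates 1 and 2 it was 1.06 and 0.83 cycles.

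**Figure D4:**
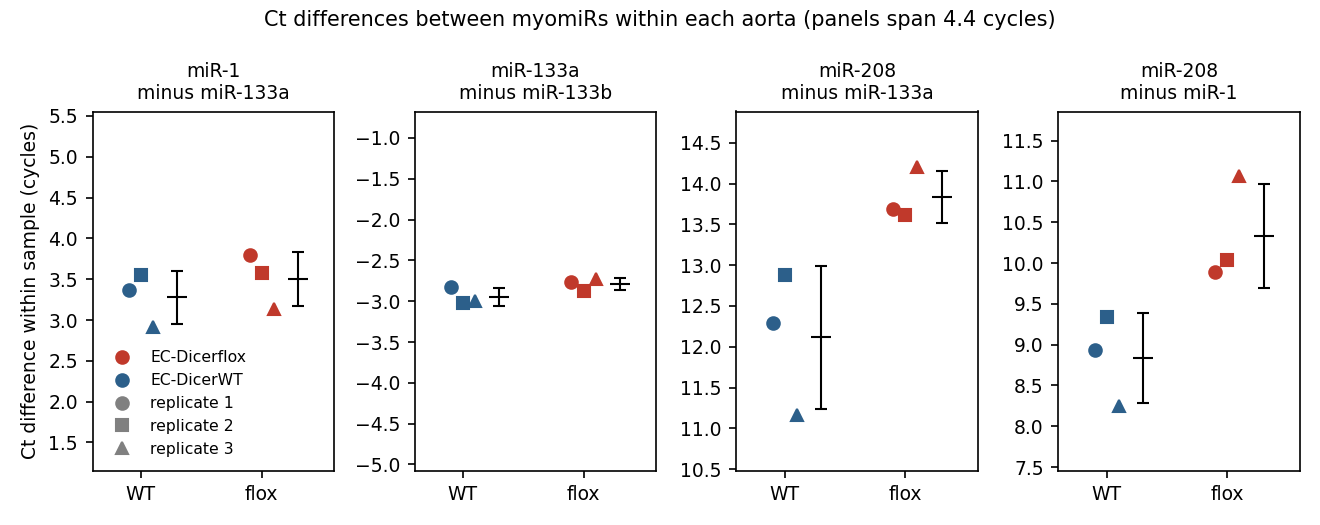
Ct differences (cycles) between pairs of myomiRs detected in all samples, computed within each aorta of the EC-DicerWT (WT) and EC-Dicerflox (flox) groups, with the group mean and SD (n = 3) beside the symbols, on panels that each span 4.4 cycles. The groups overlap for miR-1 against miR-133a and for miR-133a against miR-133b, and miR-208 crosses later in every EC-Dicerflox aorta, from 13.6 to 14.2 cycles after miR-133a against 11.2 to 12.9 cycles in EC-DicerWT aortas.

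MiR-208b, which shares its seed UAAGACG with miR-208a, had its only signals in the group where miR-208 was lower. It followed miR-208 by 2.58 cycles in EC-Dicerflox replicate 2 and by 0.44 cycles in EC-Dicerflox replicate 3. In the other samples the distance was at least 8.15 cycles, since miR-208b was at the limit. Detection in 2 of 3 against 0 of 3 mice gave a P of 0.4 in Fisher's exact test. With wells kept at 40, the distance between the pair differed by 5.57 cycles between the groups (exact permutation P of 0.1, adjusted 0.23). That size depends on the value given to undetected wells, and it was 2.27 cycles with a limit of Ct 35 and 3.64 cycles in replicates 1 and 2. Of the 19 assays detected in exactly 2 samples, 7 had both signals in EC-Dicerflox, 1 had both in EC-DicerWT and 11 had one in each group. Whether the assay for one miR-208 form picks up the other, from which it differs at 3 bases, was not tested.

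MiR-499 was detected in 0 of 3 EC-Dicerflox and 1 of 3 EC-DicerWT aortas (Fisher's exact P of 1). The pairs of miR-499 with miR-208 and with miR-1 rest on wells at the limit in 5 of 6 samples and had exact permutation P values of 1. Of the 2625 detected miRNA wells, 258 were later than the earlier of the miR-208b signals and 180 (6.86%) had a Ct over 35.

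The other strand of a myomiR hairpin was assayed once, as miR-133a*. Its Ct was 30.4, 37.4 and 39.3 in EC-Dicerflox and 33.2, 31.9 and 40 in EC-DicerWT aortas, the last of these undetected. This strand varied by at least 9.60 cycles between aortas, while miR-133a varied by 0.80 cycles. Its difference between the groups was -0.53 ± 2.94 (SE, log2), with an adjusted limma P of 0.994.

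Across the 6 aortas, the assay whose level pattern was most like that of miR-133a was miR-133b, first of 393 assays detected in all samples (Pearson r = 0.94 over 6 samples, and 0.92 with the mean of all such miRNAs as reference). The levels share a reference and a card, so r is given as a description. Whether the 2 assays read separate molecules was not tested. MiR-1 was less like its partner miR-133a, with r = 0.68 and rank 90 of 393. The non-member assays closest to miR-1 were miR-322* (0.99), miR-434-3p (0.99) and miR-872* (0.98). In each of them, as in miR-1, replicate 3 had the highest level of its group. They were picked by likeness to miR-1 over the same 6 samples, so this shared pattern largely follows from that choice. For miR-208 the closest were miR-98 (0.96), a member of the let-7 family, miR-301a (0.95) and miR-484 (0.94). The group difference was -2.67 ± 0.87 for miR-98, -0.69 ± 0.26 for miR-301a and -0.38 ± 0.23 for miR-484 (log2, SE), and none of these passed the adjusted limma threshold. These assays were picked by likeness to miR-208 over the same 6 samples, so lower values in EC-Dicerflox aortas largely follow from that choice. MiR-208 itself had r = 0.46 with miR-1 (rank 97 of 393), r = -0.02 with miR-133a and r = -0.29 with miR-133b.

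Other miRNAs found in striated muscle, though not restricted to it, gave no call. Of 11 listed, 8 were in the table, and 0 of the 8 had an adjusted limma P under 0.05, against 0.0% of all tested assays. At an unadjusted limma P under 0.05 the count was also 0 of 8, against 4.78% of all tested assays. The 8 were miR-486, which lies in the gene of the muscle and erythrocyte ankyrin Ank1, 5 members of the miR-30 family, miR-26a and miR-181a. The changes ranged from -0.27 for miR-181a to 0.06 for miR-26a, with a median of 0.02.

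Markers of the other cells that an aorta sample can hold were set beside the lower values of miR-208. For each list the levels were summed on the linear scale relative to the control RNAs. The smooth muscle list (3 of 4 in the table, led by miR-143 and miR-145) summed to between 40.5 and 66.5 in EC-Dicerflox and between 38.8 and 55.3 in EC-DicerWT aortas, and miR-143 and miR-145 were detected in all 6 samples. The 2 endothelial miR-126 strands summed to between 3.94 and 6.76 and between 4.41 and 7.08, and the 6 leukocyte miRNAs to between 2.61 and 3.69 and between 2.79 and 4.03. The miR-126 strands are themselves Dicer products of the cells that lost Dicer, so endothelial content and processing cannot be told apart in them. MiR-451 of erythrocytes (1 of 2 in the table) lay between 0.681 and 1.05 and between 0.579 and 1.03. The 3 brown fat miRNAs summed to between 4.74 and 8.06 and between 4.92 and 8.44, and miR-122 of liver lay between 0.0123 and 0.133 and between 0.0275 and 0.104. The ranges of the groups overlapped for all of these lists, and 0 of their 16 tested assays had an unadjusted limma P under 0.05, against 4.78% of all tested assays. The sums are carried by the early assays, and the late miR-145* differed by 1.86 ± 0.99 (SE, log2) with overlap (adjusted limma P of 0.994). Among the other myosin-encoded miRNAs, miR-499 was detected in 0 of 3 EC-Dicerflox and 1 of 3 EC-DicerWT aortas. MiR-208b was detected in 2 of 3 EC-Dicerflox and 0 of 3 EC-DicerWT aortas. The part of attached heart tissue in the values of miR-208 was not tested.

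The direction of miR-208 was lower in EC-Dicerflox aortas in all 20 alternative fits, between -2.09 and -1.05. Most of these fits could not have turned it. Other filters, limits, variance models, the replicate block and the batch term returned the same -1.65. As the groups did not overlap, omitting samples could not change the sign, which left only the changes of reference. In 15 of the 20 alternative fits the limma P before adjustment was under 0.05, and after adjustment it lay between 0.682 and 0.999 in all 20.

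**Figure D5:**
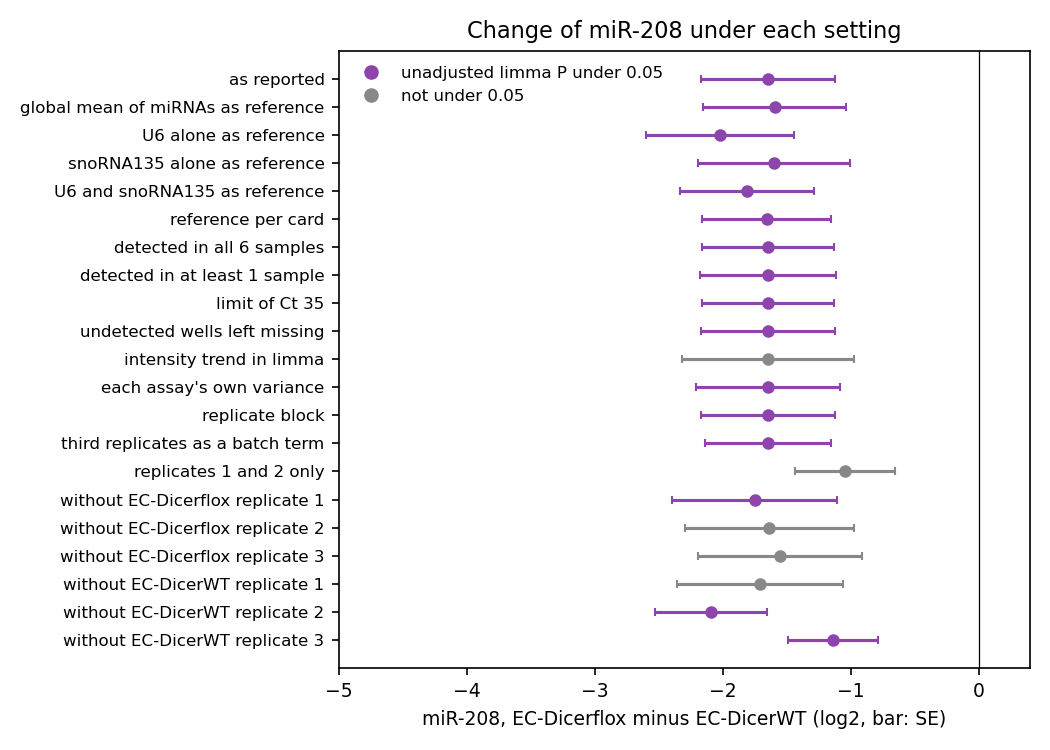
EC-Dicerflox minus EC-DicerWT of miR-208 (log2, points, with SE as bars) as reported and under each of the 20 alternative settings, purple where the unadjusted limma P was under 0.05. All points lie below 0, between -2.09 and -1.05, and the 5 grey points include the fit to replicates 1 and 2 only. Only the changes of reference could have moved a point past 0.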

How the data were processed

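Total RNA of 6 aortas was profiled on TaqMan array cards after reverse transcription and preamplification with rodent primer pools. The authors deposited raw Ct values without normalisation, with 40 as the detection limit. The setting of baseline and threshold is not given in the sources used here. Ct has no read depth, and precision is set by the 3 mice per group. Groups and replicate numbers came from the sample labels.

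The Ct values of Y1, U87, U6, snoRNA202 and snoRNA135 were averaged over both cards and then over the 5 RNAs, and the level was this reference minus the Ct (log2, assuming doubling per cycle). Assays with a Ct under 40 in at least 3 of 6 samples (439 of 596) were fitted with limma 3.58.1 (lmFit and eBayes, two-sided, no replicate block) in R 4.3.3, with Benjamini-Hochberg adjustment over all of them and a threshold of 0.05. Pairs of Ct values were compared by exact permutation over the 20 assignments of samples.

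All members were named, with related muscle miRNAs, other strands and, for miR-1 and miR-208, the 3 assays with the highest Pearson r. Members and lists were chosen with earlier results of these data known. Alternatives were other references, filters, limits, variance models, a replicate block, a batch term and omission of each sample. Replicate numbers were not taken as pairs in the reported fit.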

Additional observations from a re-analysis of the deposited data

Results flagged for a closer look

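MiR-208b was not among the tested assays, as it was detected in fewer than 3 samples. Signals were nevertheless seen at a Ct of 35.098 (EC-Dicerflox replicate 2) and 33.608 (EC-Dicerflox replicate 3), and the assay was at the limit of 40 in all EC-DicerWT aortas. An assay of a plant miRNA, which serves as negative control, crossed at 39.776 in EC-Dicerflox replicate 1 and was at the limit in the other 11 wells. Both myomiR signals came earlier than this one.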

How the results depend on the processing

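No tested myomiR reached an adjusted limma P under 0.05 in any of the 20 alternative fits. MiR-208 was lower in all of them, a direction that only the changes of reference could have turned. The number of myomiRs with an unadjusted P under 0.05 fell from 1 to 0 with an intensity trend in limma and in replicates 1 and 2 only, and ranged from 0 to 1 when each sample was left out. The replicate block changed no call for a myomiR (miR-208, -1.65, unadjusted limma P of 0.0445) and moved the count over all tested assays from 21 to 17. Deviations of same-numbered samples correlated at 0.15, -0.06 and 0.31 for replicates 1, 2 and 3, and 3 of 6 samples correlated best with their own number. MiR-133a turned to -0.31 when U6 was the only reference, to -0.094 for the mean of U6 and snoRNA135 and to -0.02 without EC-Dicerflox replicate 3, and ranged from -0.02 to 0.19 over omitted samples. MiR-133b turned to -0.15 with U6 alone and ranged from 0.107 without EC-Dicerflox replicate 3 to 0.393 without EC-Dicerflox replicate 2. MiR-1 ranged from -0.43 to 0.06 over omitted samples and turned to 0.005 without EC-Dicerflox replicate 2 and to 0.057 without EC-DicerWT replicate 3. MiR-208 minus miR-499 (0.39 cycles) turned to -0.93 in replicates 1 and 2, -0.33 without EC-DicerWT replicate 1 and -0.60 without EC-DicerWT replicate 3. MiR-1 minus miR-499 (-1.10 cycles) turned to 0.32 with a limit of Ct 35 and to 0.37 without EC-DicerWT replicate 2. Over omitted samples these pairs ranged from -0.60 to 2.112 and from -1.873 to 0.37 cycles. Both rest on wells at the limit. The cause of the other shifts was not tested. MiR-206 against miR-133b was not run.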
